A study of Mus musculus with 12 samples.

Results

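The genes described here are 9 enzymes of the liver that break down tyrosine (Tat, Hpd, Hgd, Gstz1 and Fah) and histidine (Hal, Uroc1, Amdhd1 and Ftcd). They were chosen by name from a list of the phenylalanine, tyrosine and histidine pathways, and each was read from the probe sets that carry its symbol in the annotation of the array. All 9 listed genes were found, on 12 probe sets, among 18193 genes on the array. Where a gene had several probe sets, the brightest over the 12 arrays stood for it, and all 9 passed the filter on dim signals, as did 11099 genes in all.

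Expression was measured in the livers of 12 fasting C57BL/6 mice, with 1 Affymetrix array per mouse and 4 mice per group. The mice of the MCD+HF+Met group ate a diet lacking methionine and choline and rich in fat, into which 0.1% metformin, an oral glucose-lowering drug, was mixed. The mice of the MCD+HF group ate the same diet without the drug, as a dietary model of nonalcoholic steatohepatitis, and the mice of the NC group ate normal chow. Feeding began at 8 weeks of age and lasted 8 weeks in every group. The MCD+HF and NC diets differ in methionine, choline and fat together, so these parts cannot be told apart.

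In hepatocytes, phenylalanine is first hydroxylated to tyrosine with the cofactor tetrahydrobiopterin. Tat, tyrosine aminotransferase, then removes the amino group, and Hpd, Hgd, Gstz1 and Fah carry the product in turn through homogentisate, maleylacetoacetate and fumarylacetoacetate to fumarate and acetoacetate. Tat is known as a gene induced by glucocorticoids and fasting, and loss of Fah in humans causes hereditary tyrosinemia. Histidine is deaminated to urocanate by Hal, and Uroc1, Amdhd1 and Ftcd convert urocanate to glutamate, with Ftcd passing the remaining one-carbon unit to tetrahydrofolate.

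Hal and Amdhd1, which act in the same pathway, are neighbours on mouse chromosome 10. In the GRCm38.p6 annotation Hal lies on the plus strand from 93488768 to 93516761 and Amdhd1 on the minus strand from 93523338 to 93540111, so that their ends face each other across 6576 bases. Ftcd is on chromosome 10 too, and the other members are on chromosomes 5 (Hpd), 6 (Uroc1), 7 (Fah), 8 (Tat), 12 (Gstz1) and 16 (Hgd). The 250 bases before the transcription start are shown for the 3 members with the lowest log2 changes on the MCD+HF diet (Hal, Amdhd1 and Ftcd) and for Tat, the member that did not pass the test. Sequences are from RefSeq on GRCm38.p6, read 5′ to 3′ on the strand of the gene, and capitals mark matches on either strand to TATAAA (the TATA box), CCAAT (the CCAAT box), GTTAAT (part of an HNF1 site), AGAACA (part of a glucocorticoid response element) or TTGCNNAA (a C/EBP site). None of these matches overlap in the 4 windows.
Hal, chr10:93488518-93488767, plus strand: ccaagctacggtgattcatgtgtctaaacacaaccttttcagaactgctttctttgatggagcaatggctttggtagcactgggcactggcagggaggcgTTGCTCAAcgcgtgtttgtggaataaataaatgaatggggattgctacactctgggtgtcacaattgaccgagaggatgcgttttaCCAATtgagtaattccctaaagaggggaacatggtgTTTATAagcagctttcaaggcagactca
Amdhd1, chr10:93540034-93540283, minus strand: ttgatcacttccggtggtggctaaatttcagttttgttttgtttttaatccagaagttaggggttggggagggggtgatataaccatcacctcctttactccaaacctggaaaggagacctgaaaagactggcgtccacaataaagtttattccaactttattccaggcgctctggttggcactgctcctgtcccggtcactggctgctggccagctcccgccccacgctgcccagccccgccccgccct
Ftcd, chr10:76575398-76575647, plus strand: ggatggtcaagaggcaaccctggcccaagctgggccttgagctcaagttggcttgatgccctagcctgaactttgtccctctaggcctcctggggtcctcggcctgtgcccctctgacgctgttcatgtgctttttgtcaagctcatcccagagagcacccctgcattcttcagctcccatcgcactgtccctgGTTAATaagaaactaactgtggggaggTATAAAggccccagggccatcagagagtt
Tat, chr8:109990186-109990435, plus strand: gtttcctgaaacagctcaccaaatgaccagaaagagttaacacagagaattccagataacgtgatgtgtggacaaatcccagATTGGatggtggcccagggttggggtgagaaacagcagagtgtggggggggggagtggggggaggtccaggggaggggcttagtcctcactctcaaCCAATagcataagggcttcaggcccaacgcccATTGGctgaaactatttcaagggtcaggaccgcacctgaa

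Windows of 250 bases were found for all 9 members, Gstz1 having a pair of starts. TATAAA lay 29 to 24 bases before the start of Ftcd and, on the opposite strand, 28 to 23 bases before that of Hal. It was found in 3 members and in 12.4% of 32851 promoters of the same length. CCAAT was found in 5 members (33.9% of promoters), with 3 matches in Tat, and GTTAAT only in Ftcd among the 9 members (6.43% of promoters). TTGCNNAA was found in Hal and Hgd (9.56% of promoters). AGAACA had no match in any member (16.1% of promoters), and the Amdhd1 window held none of the 5 motifs. A match is a run of letters, and no binding was measured.

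The authors had scaled the linear signals of every array to a mean of 100. For the tests, 10 was added to each signal and log2 was taken, which understates the changes of dim genes. The 3 groups were fitted in 1 limma model over the 22831 probe sets whose mean signal reached 20, and a gene was called at an adjusted p under 0.05 (Benjamini-Hochberg). Arrays of the same group correlated at 0.971 to 0.988. Each p-value sets a difference against the spread between mice, and with 4 arrays a group the precision is limited. Signals of different probe sets were not compared with each other. The arrays read mRNA, and neither the protein nor the activity of the enzymes was measured on them.

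The MCD+HF diet lowered the mRNA signal of 8 of the 9 enzymes relative to normal chow. Hal, Amdhd1 and Ftcd were also lower relative to general hepatocyte markers. Hpd and Fah were so only by a small amount, within the range of the markers themselves. All 4 enzymes of histidine breakdown fell, by 2.18-fold for Uroc1 to 4.68-fold for Hal. Of the tyrosine enzymes, Hpd, Hgd, Gstz1 and Fah fell, by 1.83-fold for Hgd to 2.41-fold for Hpd, while the first enzyme, Tat, did not pass the test. For the 8 genes that fell, every MCD+HF mouse lay below every NC mouse. For comparison, 20.8% of all genes tested were called lower on this diet, 27.4% were called higher and 20.1% had MCD+HF mice all below NC mice. The median log2 change of the members was -1.22, against 0.05 over all genes.

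**Figure D1:**
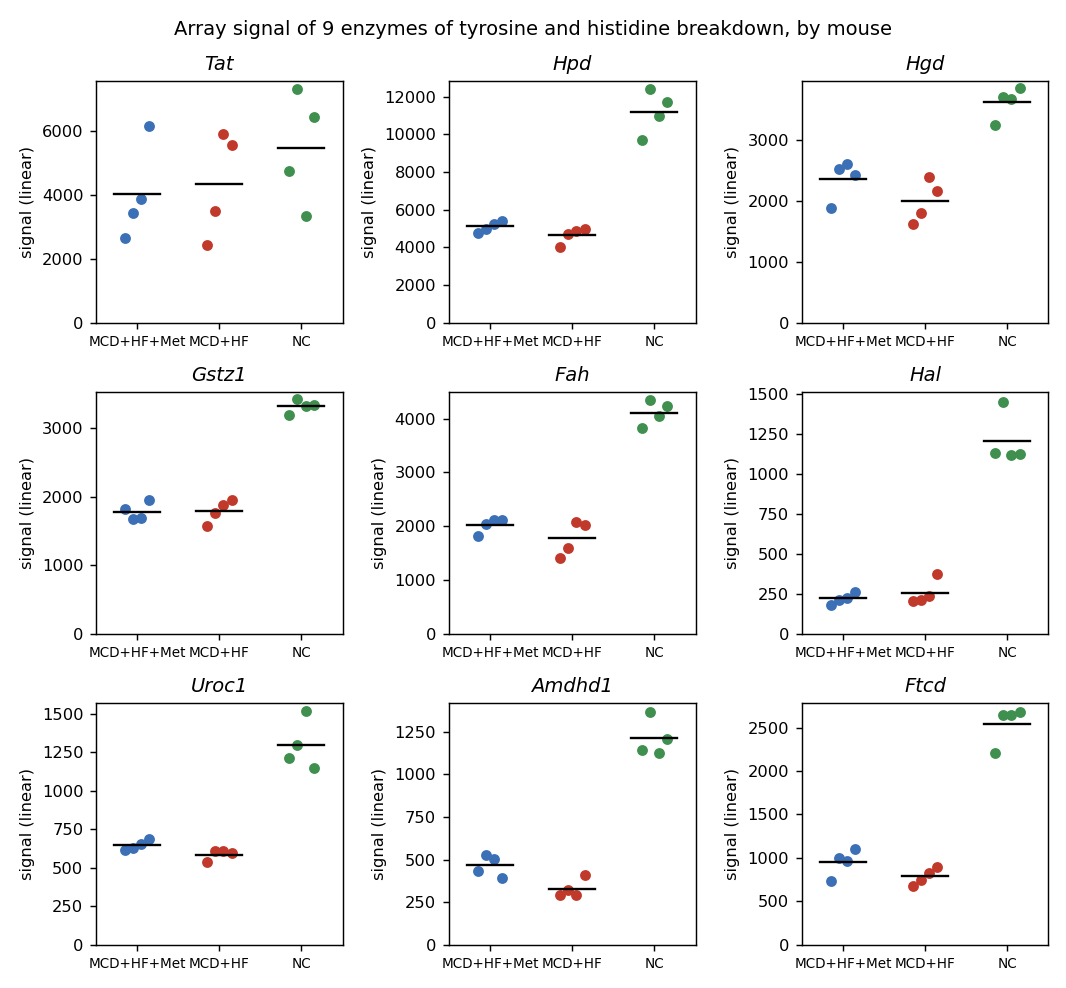
Array signal (linear axis from 0) of each enzyme in each mouse, with MCD+HF+Met, MCD+HF and NC from left to right; each point is 1 mouse and the line is the mean of 4 mice. In every panel except that of Tat the 8 mice on the MCD+HF diet lie below the 4 NC mice, on signals scaled as deposited.

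Hal, histidine ammonia-lyase, which commits histidine to breakdown, showed the lowest change. Its signal was 182, 210, 226 and 263 in MCD+HF+Met mice, 204, 210, 236 and 373 in MCD+HF mice, and 1129, 1448, 1118 and 1125 in NC mice. Both groups on the MCD+HF diet lay far below the chow mice, with 1 MCD+HF mouse above the other 3. The log2 change of MCD+HF against NC was -2.23 (standard error 0.17, limma adjusted p = 5.1e-08), and only 0.802% of genes had a change as low or lower. Without MCD+HF replicate 4, that mouse, the change was -2.42.

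Uroc1, urocanate hydratase, acts next. The values were 617, 627, 652 and 690 in MCD+HF+Met mice, 537, 608, 607 and 593 in MCD+HF mice, and 1216, 1296, 1520 and 1151 in NC mice. Mice of the same group on the MCD+HF diet lay close together, with those given metformin slightly above the others. This probe set carries the _s_at suffix, which marks probes that can match more than 1 transcript. Against NC, the log2 change on the MCD+HF diet was -1.12 (standard error 0.10, limma adjusted p = 1.8e-07). The other probe set of Uroc1 gave -0.94 (limma adjusted p = 0.0058).

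Amdhd1 opens the imidazolone ring that Uroc1 produces. It read 435, 529, 506 and 394 in MCD+HF+Met mice, 295, 323, 290 and 408 in MCD+HF mice, and 1143, 1362, 1126 and 1208 in NC mice. On the MCD+HF diet alone, 3 mice lay below all 4 metformin-treated mice and the remaining one above only the lowest of them. MCD+HF mice differed from NC mice by -1.86 on the log2 scale (standard error 0.12, limma adjusted p = 1.4e-08), which corresponds to 3.62-fold, and -1.28 on the other probe set of the gene.

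Ftcd, a bifunctional enzyme that ends the pathway and hands its one-carbon unit to folate, had signals of 737, 1004, 970 and 1107 in MCD+HF+Met mice, 680, 746, 828 and 899 in MCD+HF mice, and 2203, 2646, 2641 and 2679 in NC mice. No mouse on either MCD+HF diet came near the lowest chow mouse. MCD+HF against NC gave a log2 change of -1.68 (standard error 0.12, limma adjusted p = 4.1e-08), or 3.20-fold. Over the 4 histidine enzymes the median was -1.77, and over the 4 tyrosine enzymes called it was -1.06; the difference between the pathways was not tested.

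In tyrosine breakdown, the 4 enzymes after Tat were all called lower. Hpd, 4-hydroxyphenylpyruvate dioxygenase, the target of the drug nitisinone, had signals of 4787, 4959, 5265 and 5425 in MCD+HF+Met mice, 4029, 4692, 4874 and 5000 in MCD+HF mice, and 9700, 12423, 10998 and 11731 in NC mice. Every mouse on the MCD+HF diet stood well under the chow mice. Its log2 change of MCD+HF against NC was -1.27 (standard error 0.09, limma adjusted p = 3.7e-08). Fah, fumarylacetoacetase, the last enzyme, gave 1815, 2043, 2115 and 2123 in MCD+HF+Met mice, 1408, 1601, 2082 and 2023 in MCD+HF mice, and 3816, 4344, 4056 and 4235 in NC mice. The MCD+HF mice divided into a lower and a higher pair, both under the chow mice. The log2 change of Fah was -1.22 (standard error 0.11, limma adjusted p = 4.7e-07).

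Hgd, homogentisate dioxygenase, and Gstz1, maleylacetoacetate isomerase, lie between them. Hgd read 1878, 2521, 2605 and 2419 in MCD+HF+Met mice, 1614, 1788, 2378 and 2159 in MCD+HF mice, and 3238, 3702, 3657 and 3847 in NC mice. The groups on the MCD+HF diet overlapped each other and not the chow mice. The log2 change of MCD+HF against NC was -0.87 (standard error 0.13, limma adjusted p = 4.2e-05) on this probe set. A dimmer probe set of Hgd, with a mean signal of 130, gave 0.19 (limma adjusted p = 0.435), and the mean over both gave -0.34 (adjusted p = 0.0703 from limma), so the call rests on the brighter one. Gstz1 read 1823, 1670, 1690 and 1949 in MCD+HF+Met mice, 1570, 1769, 1875 and 1956 in MCD+HF mice, and 3196, 3436, 3334 and 3346 in NC mice. The means were 1783 ± 130 in MCD+HF+Met mice, 1792 ± 167 in MCD+HF mice and 3328 ± 99.3 in NC mice (SD, n = 4 each), and the chow mice differed little from each other. MCD+HF against NC gave a log2 change of -0.89 (standard error 0.09, limma adjusted p = 6.3e-07).

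Tat was the exception. Its signal was 2637, 3434, 3882 and 6163 in MCD+HF+Met mice, 2423, 3494, 5909 and 5557 in MCD+HF mice, and 4763, 7322, 3345 and 6440 in NC mice. The 3 groups overlapped, and the highest mouse exceeded the lowest 2.34-fold with metformin, 2.44-fold on the MCD+HF diet and 2.19-fold on chow. The log2 change of MCD+HF against NC was -0.36 (95% confidence interval -0.99 to 0.27, limma adjusted p = 0.352), and that of MCD+HF+Met against NC was -0.45 (limma adjusted p = 0.250). The first interval includes a change of the size seen for Hgd. The spread of Tat within groups, 0.541 on the log2 scale, was at or above that of 97.9% of genes, against a median of 0.203. The other 8 enzymes ranged from 0.102 for Gstz1 to 0.277 for Hal.

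**Figure D2:**
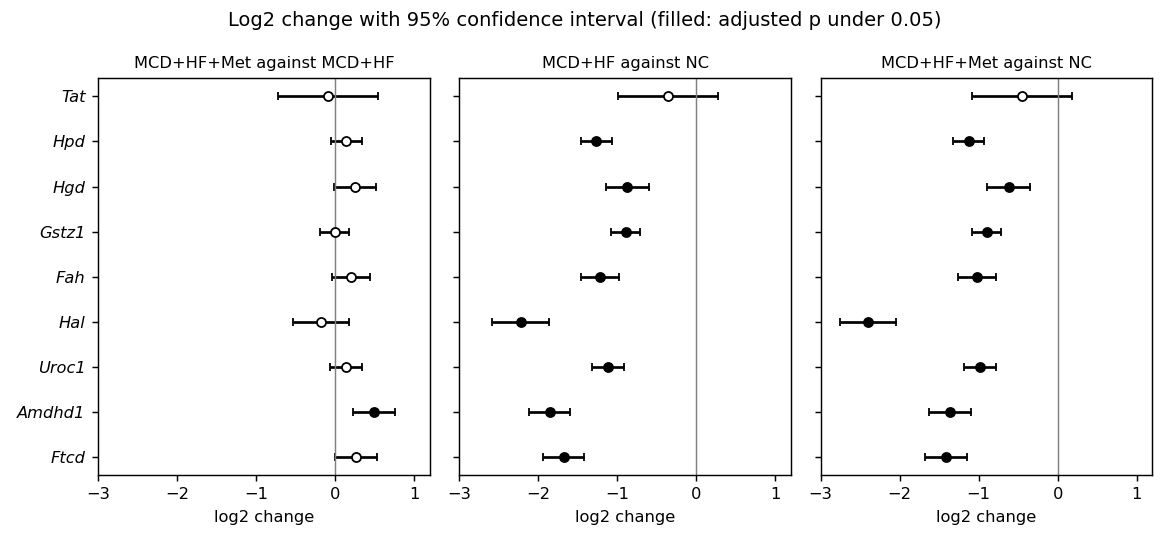
Log2 change of each enzyme in the 3 comparisons, with its 95% confidence interval from limma; filled points passed an adjusted p of 0.05. On the MCD+HF diet, with or without metformin, 8 of 9 enzymes lay below NC with Hal lowest, and metformin against the diet alone gave 1 filled point, Amdhd1 at 0.49.

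With metformin, 1 of the 9 enzymes, Amdhd1, was called higher than with the MCD+HF diet without it and none was called lower, where 1.63% of all genes were called higher and 2.34% lower. The mean signal of Amdhd1 was 466 ± 62.4 in MCD+HF+Met mice and 329 ± 55.0 in MCD+HF mice (SD, n = 4 each), against 1210 ± 108 in NC mice. The log2 change was 0.49 (standard error 0.12, limma adjusted p = 0.0393), or 1.41-fold, and 97.5% of genes had a change as high or lower. This call lay near the threshold. It was lost in 14 of 24 alternatives, over which the limma adjusted p ran from 0.0161 to 0.746, and the other probe set of Amdhd1 gave a log2 change of 0.10. Leaving out MCD+HF+Met replicates 1, 2 or 3, MCD+HF replicates 1, 2 or 3 or NC replicate 1 ended the call at adjusted p values of 0.0519 to 0.126, at log2 changes of 0.43 to 0.52.

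The other 8 enzymes were not called with metformin. Of all 9, 6 had a positive change, and the median was 0.14, against 0.01 over all genes. Ftcd averaged 954 ± 156 with metformin and 788 ± 95.5 on the diet alone (SD, n = 4 each; log2 change 0.26, unadjusted p = 0.0484, limma adjusted p = 0.259). In Uroc1 all 4 MCD+HF+Met mice lay above all 4 MCD+HF mice, a pattern found in the higher direction in 6.42% of genes, at a log2 change of 0.14 (limma adjusted p = 0.459). That difference had the opposite sign on the other probe set of Uroc1, at -0.27. Hgd gave 0.25 (limma adjusted p = 0.295), Fah 0.20 (0.356), Hpd 0.14 (0.441), Gstz1 -0.01 (0.981), Tat -0.09 (0.907) and Hal -0.18 (0.615). The 95% confidence interval of Hal was -0.53 to 0.18 and that of Gstz1 -0.19 to 0.18, so a rise above 0.18 lay outside both. RNA quality can be read from control probe sets at both ends of beta-actin, whose 3′/5′ ratio was 1.62 to 1.86 in MCD+HF+Met mice and 1.46 to 1.62 in MCD+HF mice, against 1.54 to 1.88 in NC mice; its part in these differences was not tested.

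Compared with normal chow, the livers of metformin-treated mice still had lower mRNA signals, as deposited, for 8 of the 9 enzymes. All 8 were called lower and had MCD+HF+Met mice all below NC mice, where 18.6% of all genes were called lower and 17.3% were fully separated in this direction. The median log2 change was -1.02, against 0.06 over all genes. Hal was lowest, at -2.40 (limma adjusted p = 3.3e-08) or 5.28-fold, followed by Ftcd at -1.42 (2.67-fold) and Amdhd1 at -1.36 (2.57-fold). Hpd lay at -1.13, Fah at -1.02, Uroc1 at -0.99, Gstz1 at -0.90 and Hgd at -0.62 (limma adjusted p = 0.00103). The comparisons of MCD+HF+Met with NC and of MCD+HF with NC share the NC mice, and those of MCD+HF+Met with MCD+HF and of MCD+HF with NC share the MCD+HF mice, so they are not independent.

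Genes that hepatocytes express in general fell on the MCD+HF diet together with these enzymes. Of 15 hepatocyte markers, such as the plasma proteins albumin and transthyretin, 15 were called lower in MCD+HF than in NC mice, with a median log2 change of -0.99; under quantile normalization 7 were called lower and 1 higher, with a median of -0.19, so this fall depends on the scaling. Their summed signal ranged from 105242 to 128956 in MCD+HF+Met mice, 91550 to 113877 in MCD+HF mice and 185717 to 217393 in NC mice. In these bulk samples, fewer hepatocytes and less RNA per hepatocyte cannot be told apart. Summed markers of stellate cells and fibroblasts moved the other way, at 5228 to 7968 in MCD+HF+Met mice and 7211 to 9076 in MCD+HF mice, against 2146 to 2855 in NC mice. Macrophage markers summed to 2864 to 5154 in MCD+HF+Met mice, 5729 to 7464 in MCD+HF mice and 3981 to 5056 in NC mice. Of 9 macrophage markers tested, 4 were called higher on the diet, Lyz2 (2.21) and Cd68 (2.35) among them, and 2, Clec4f (-1.36) and the dim Timd4, lower, with a median of 0.15. Timd4 averaged 18.6 in MCD+HF mice and 57.6 in NC mice, and passed the filter on dim signals only through the NC mice. On the diet 27.4% of all genes were called higher and 20.8% lower, so the count of 2 lower macrophage markers is near that share. With metformin 3 of the 9 macrophage markers were called lower and 0 higher, where 2.34% of all genes were called lower and 1.63% higher. Cholangiocyte markers summed to 213 to 475 in MCD+HF+Met mice, 311 to 425 in MCD+HF mice and 34.3 to 92.1 in NC mice. All 5 were dim in NC mice, with means of 6.325 (Epcam) to 13.925 (Krt7). They passed the filter on dim signals only through the groups on the MCD+HF diet, so the size of this difference is uncertain. Summed endothelial markers differed less, at 1350 to 1532 in MCD+HF+Met mice, 1317 to 1568 in MCD+HF mice and 1193 to 1554 in NC mice. Single ones moved both ways: of 7, 2 were called higher on the diet, Lyve1 (1.02) and Vwf (0.89). Another 2, Stab2 (-0.28) and Cdh5 (-0.42), were called lower, and both counts are near the shares of all genes. Of the lymphocyte markers, 7 of 8 had a mean signal under 20, T cell and B cell receptor genes among them. The remaining one, Ptprc, the common antigen of leukocytes, moved with the groups, at 183 ± 30.3 in MCD+HF+Met mice, 425 ± 102 in MCD+HF mice and 172 ± 15.7 in NC mice (SD, n = 4 each), and was called lower with metformin (-1.16, limma adjusted p = 0.00131) and higher on the diet (1.23, limma adjusted p = 1.3e-05). The part of other cell types in the enzymes' changes was not tested.

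Set against the hepatocyte markers, Hal, Amdhd1 and Ftcd remained lower on the MCD+HF diet, Hpd and Fah were lower by a small amount, and Uroc1, Gstz1 and Hgd were not called. When each array was centred on these markers, the log2 change of MCD+HF against NC was -1.22 for Hal, -0.85 for Amdhd1 and -0.67 for Ftcd (limma adjusted p = 3.8e-07, 1.6e-05 and 1.0e-05). Hpd and Fah lay at -0.26 (limma adjusted p = 0.00254) and -0.21 (0.0408). Uroc1 stood at -0.12, Gstz1 at 0.11 and Hgd at 0.13, and Tat was called higher at 0.65 (limma adjusted p = 0.0191). This centring shifted the median of all probe sets by about as much, to 1.07, against 0.06 as deposited, and the share of higher calls to 98.0%, against 58.1%. It left 413 of all 22831 probe sets called lower. Of the 15 markers themselves, 3 were then called lower and 2 higher. As deposited the markers ran from -1.45 (Fgb) to -0.42 (Ahsg). That range holds Hpd (-1.27) and Fah (-1.22) but not Hal, Amdhd1 or Ftcd. The direction for Tat, Gstz1 and Hgd thus differed between the scalings. Under quantile normalization, where 51.2% of calls were higher, all 8 enzymes stayed called lower, and Hpd moved to -0.59, Gstz1 to -0.56 and Hgd to -0.53, and Tat to 0.11 (limma adjusted p = 0.778).

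**Figure D3:**
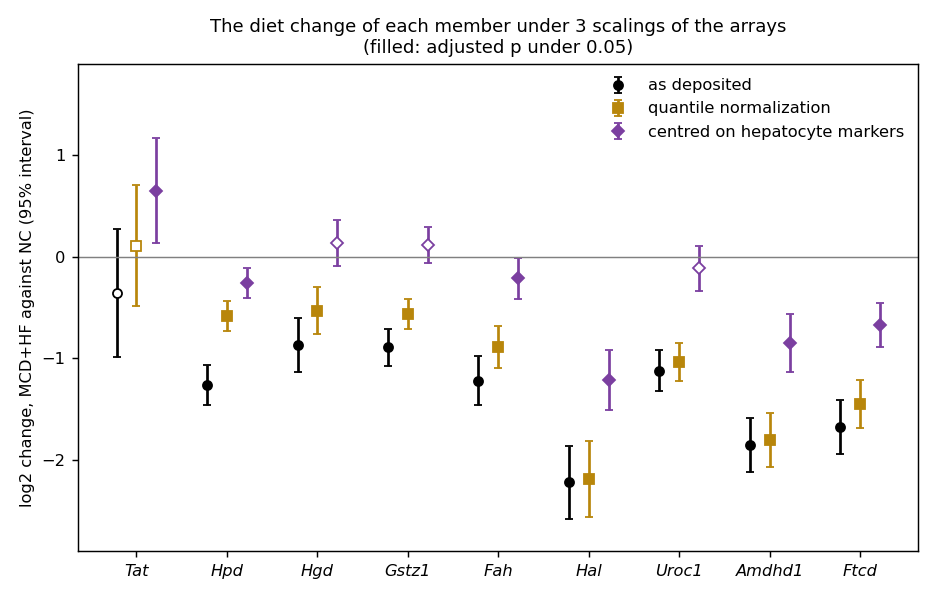
Log2 change of MCD+HF against NC for each enzyme, with its 95% interval, from signals as deposited (circles), after quantile normalization (squares) and with each array centred on hepatocyte markers (diamonds); filled points passed an adjusted p of 0.05. Hal, Amdhd1, Ftcd, Hpd, Fah and Uroc1 were below 0 under all 3 scalings, Uroc1 without a call under the centring. Tat lay at -0.36, 0.11 and 0.65.

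With the same centring, the change of Amdhd1 with metformin was 0.29 and was not called (limma adjusted p = 0.186), and none of the 9 enzymes was called in that comparison. The median of all probe sets then stood at -0.22, against -0.02 as deposited, and 3.58% of calls were higher, against 35.9%. Against NC, 5 enzymes were called lower in centred MCD+HF+Met livers, with Hal at -1.60, Ftcd at -0.61, Amdhd1 at -0.56, Hpd at -0.32 and Fah at -0.22. Tat at 0.36, Hgd at 0.18, Gstz1 at -0.09 and Uroc1 at -0.18 were not. Here the median of all probe sets was 0.83, against 0.03 as deposited, and 97.3% of calls were higher, against 55.9%. Of all 22831 probe sets, 507 were called lower.

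Within a group, the enzymes tended to be high or low in the same mouse. MCD+HF+Met replicate 1 was lowest in its group for 7 of the 9 enzymes and replicate 4 highest for 7. MCD+HF replicate 1 was lowest for 8 enzymes, and NC replicate 1 was lowest for 5 and NC replicate 2 highest for 6. The median deviation from the group mean was -0.15 and 0.09 on the log2 scale in MCD+HF+Met replicates 1 and 4, -0.20 in MCD+HF replicate 1, and -0.11 and 0.08 in NC replicates 1 and 2. Hepatocyte markers ran the same way in 2 of the groups. Their median deviation from the mean of all arrays was lowest in replicate 1 (-0.31) and highest in replicate 4 (-0.05) among MCD+HF+Met mice, and lowest in replicate 1 (0.49) and highest in replicate 2 (0.72) among NC mice. Among MCD+HF mice it was lowest in replicate 2 (-0.51), with replicate 1 at -0.48. The part of the array's overall hepatocyte signal in this order was not tested.

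**Figure D4:**
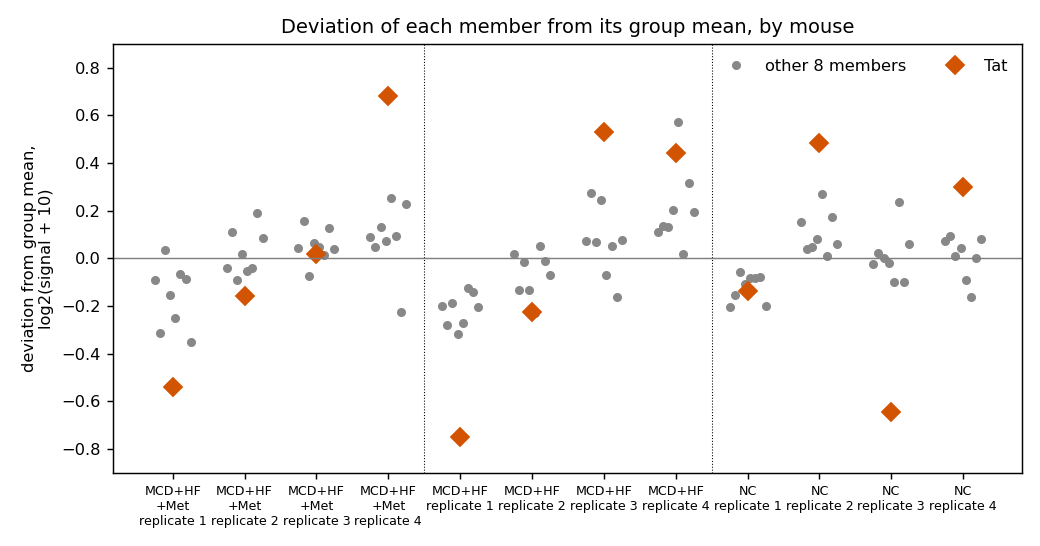
Deviation of each enzyme from the mean of its group, in log2(signal + 10), for each of the 12 mice; diamonds are Tat and grey points the other 8 enzymes. Tat spreads from -0.75 in MCD+HF replicate 1 to 0.68 in MCD+HF+Met replicate 4, further than most grey points in the same mice.

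Likeness of profiles was measured as the root mean square difference over the 12 arrays of log2(signal + 10), each gene centred on its own mean. Hpd and Fah, which act at different steps of tyrosine breakdown, were 0.100 apart; among 11098 other genes, Hpd ranked 2nd for Fah and Fah ranked 5th for Hpd. The genes nearest to Hpd were Iyd, Azgp1 and Nqo2, and those nearest to Fah were Hrg, Hpd and Iyd. Amdhd1 and Ftcd were 0.214 apart (Ftcd ranked 13th for Amdhd1), and the nearest genes were Pygl, Cyp27a1 and Afm for Amdhd1 and Plg, Gstp1 and Baat for Ftcd. Hal stood further from the other enzymes, with Ftcd ranked 66th at 0.437, and was nearest to Aadat (0.205), a mitochondrial aminotransferase, Cyp2j5 and Ttc39c. The nearest genes were Serpina1b, Apof and Azgp1 for Uroc1, F12, Uqcrb and Mst1 for Hgd, and Mdh1, Atp5c1 and Apoc3 for Gstz1. Tat had no close neighbour: its nearest gene, Gin1, was 0.244 away, followed by Gpat4 and Slc25a51, and its nearest member, Hgd, ranked 385th. These are descriptions, as all profiles come from the same arrays.

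Genes around the pathways were described from lists of textbook members. Of 8 genes that make, recycle or assist tetrahydrobiopterin, 7 were called lower in MCD+HF than in NC mice and none higher, with a median log2 change of -0.79; over all genes tested 20.8% were called lower and the median was 0.05. They included Pcbd2, a dehydratase of the cofactor, at a signal of 215 ± 25.6 in MCD+HF mice and 544 ± 42.2 in NC mice (SD, n = 4 each; log2 change -1.30), Dnajc12, a chaperone of the aromatic amino acid hydroxylases, at -1.29, and Gchfr, the feedback regulator of GTP cyclohydrolase, at -1.17. Spr, sepiapterin reductase, was not called (0.17, limma adjusted p = 0.321). None of the 8 was called with metformin.

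Genes of folate and one-carbon metabolism were listed as well. Of 12, the diet lowered 8 and raised 2, where 20.8% of all genes were called lower and 27.4% higher. Their median log2 change was -0.70, against 0.05 over all genes. Gnmt, which makes sarcosine from glycine and is inhibited by methyltetrahydrofolate, stood at -1.84, Sardh, which oxidises sarcosine, at -2.06, and Aldh1l1, which oxidises formyltetrahydrofolate, at -1.69. Mthfd1l, the mitochondrial formyltetrahydrofolate synthetase, had a signal of 109 ± 14.1 in MCD+HF mice and 32.2 ± 8.07 in NC mice (SD, n = 4 each; log2 change 1.51), and was higher again with metformin, at 174 ± 24.4 (log2 change against MCD+HF 0.63, limma adjusted p = 0.0371). Mtr, methionine synthase, was dim, at 26.0 to 42.2 in MCD+HF mice and 15.4 to 27.8 in NC mice, so the groups overlapped. It was called higher on the diet (log2 change 0.58, limma adjusted p = 0.0231). Of 6 genes of histidine uptake, its other fates and glutamate handling, 4 were called lower on the diet and 1, Hdc, higher, against the same shares of all genes. Slc38a3, a transporter that takes up glutamine and histidine, fell by 1.45. Hdc, which makes histamine, was dim, at 24.2 to 45.0 in MCD+HF mice and 1.2 to 10 in NC mice, under the minimum mean signal of 20, and it passed the filter on dim signals only through the groups on the MCD+HF diet, so no fold is given.

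Genes of other routes of amino acid breakdown fell on the diet as well. All 7 measured genes of tryptophan breakdown were called lower in MCD+HF than in NC mice, where 20.8% of all genes were. Their median was -1.39, with Afmid and Haao, of the kynurenine pathway, at -3.62 and -3.17. That median is the value of Ido2, which was dim, at 12.7 in MCD+HF mice and 50.1 in NC mice on average. Ido2 passed the filter on dim signals only through the NC mice, so its call adds nothing to the count. Afmid was dim on the diet, at 10.8 to 83.3 in MCD+HF mice against 438.3 to 756.3 in NC mice. The size of its fall is therefore less certain (standard error 0.38) than that of Haao (0.09). Of 7 urea cycle genes 5 were called lower (median -1.01), with Otc, ornithine transcarbamylase, at -3.14. With metformin, Haao was called higher by 0.76 (limma adjusted p = 0.00104) and Otc by 0.73 (limma adjusted p = 0.00492), the only calls in these lists. Of 9 targets of glucocorticoids and fasting, the signals to which Tat is known to respond, 3 were called higher and 3 lower on the diet, where 27.4% of all genes were called higher and 20.8% lower, so these counts are not a result about the targets. Sgk1 (2.39), Ppargc1a (1.54) and Fkbp5 (0.78) rose on the diet, and Pck1 (-0.66), the glucocorticoid receptor gene Nr3c1 (-0.61) and Tsc22d3 (-0.52) fell. None of the 9 was called with metformin. Of 9 transcription factors of hepatocytes, 6 fell on the diet (median -0.54) and none was called with metformin. Genes that mark the zones of the liver lobule fell in part: 7 of 10 periportal genes (median -0.70) and 6 of 12 pericentral genes (median -0.36), with 1 pericentral gene higher, while under quantile normalization 4 fell and 1 rose of the periportal genes and 4 fell and 4 rose of the pericentral genes.

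Directions in these lists depended on the scaling. Centring on hepatocyte markers left 20440 of all 22831 probe sets called higher on the diet and 413 lower, with a median of 1.07. Higher calls under this centring are therefore not a result about the lists. With the arrays centred on hepatocyte markers, the median change on the diet was 0.21 for tetrahydrobiopterin genes (3 called higher and 1 lower), 0.31 for folate enzymes (6 higher and 3 lower), 0.67 for histidine uptake and other fates (5 higher and 1 lower), 0.0019 for the urea cycle (3 higher and 1 lower) and 0.47 for hepatocyte transcription factors (4 higher and none lower). Of the glucocorticoid and fasting targets 8 were then called higher and none lower, Tsc22d3 and Pck1 among them, at 0.49 and 0.35. The median of tryptophan breakdown, Ido2 included, remained below 0, at -0.38, with 3 called lower and 1 higher. Among the genes named, Pcbd2, Sardh, Gnmt, Aldh1l1, Slc38a3, Afmid, Haao and Otc were called lower under this scaling too, and Mthfd1l, Mtr, Sgk1, Ppargc1a and Fkbp5 higher. With metformin, Haao (0.55) and Otc (0.52) were still called higher and Mthfd1l (0.42, limma adjusted p = 0.085) was not. Under quantile normalization, 4 urea cycle genes were called lower on the diet, with a median of -0.25, and of the histidine uptake list 2 were called lower and 1 (Hdc) higher, with a median of -0.02; Pck1 was not called (-0.11).

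**Figure D5:**
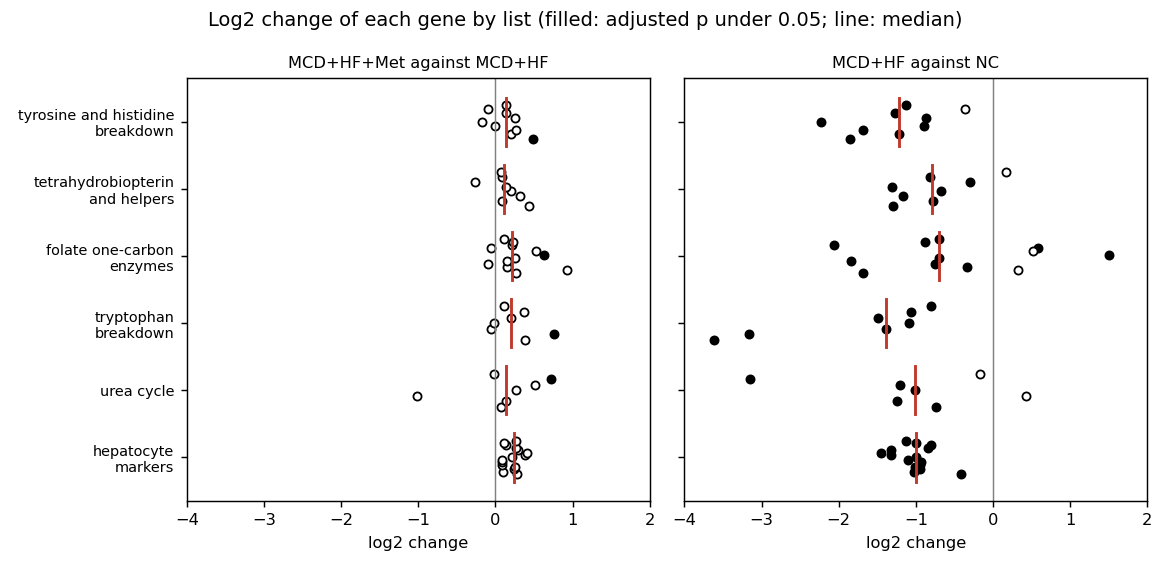
Log2 change of each gene in 6 lists, with metformin (MCD+HF+Met against MCD+HF) and with the diet (MCD+HF against NC); filled points passed an adjusted p of 0.05 and the vertical line is the median of the list. On the diet, the medians of the 6 lists ran from -0.70 for folate enzymes to -1.39 for tryptophan breakdown, with the 9 enzymes at -1.22, and with metformin all 6 medians lay between 0.12 and 0.24. The tryptophan median on the diet is the value of the dim Ido2, which passed the filter only through the NC mice. With arrays centred on hepatocyte markers, the diet medians of the tetrahydrobiopterin and folate lists turned above 0, where the median of all probe sets was 1.07.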

How the data were processed

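Total RNA from each liver was labelled with biotin and hybridised to Affymetrix mouse arrays. The authors obtained 1 signal intensity per probe set with GCOS, the scanner's software, and scaled each array to an average of 100; the deposited intensities are linear, and the mean of each array without 2% of probe sets in each tail was 100. Detection and change calls were not used here. Groups and replicate numbers came from the labels. Here 12 arrays were analysed, 4 per group.

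The intensities were taken to log2(signal + 10) without further normalization, leaving out controls. The test was limma 3.58.1 under R 4.3.3 (lmFit, then eBayes with a variance trend, 1 model of 3 groups), over the 22831 probe sets whose mean signal reached 20, with Benjamini-Hochberg adjustment over all of them. Probe sets were named from the platform annotation, where 34958 carried a single gene symbol, 932 carried several and 9160 were unnamed. Symbols were updated through a RefSeq table of GRCm38.p6, which also gave coordinates of genes. Each gene was read from its probe set of highest mean signal (those ending in _x_at only if no other). Named genes are the 9 members, called members of the lists and the 3 genes nearest in profile to each member. The members and lists were chosen with earlier results of these data known. Some listed genes were not analysed here. limma was tested on simulated data. As alternatives, the offset was 0 or 32, the minimum on the mean signal was dropped or set to 50, arrays were quantile normalized or centred on hepatocyte markers, and the fit used a replicate block, a robust variance, only 2 groups or the methods' t-test, with further fits on other probe sets and without each array in turn. Python 3.11.15 with matplotlib 3.10.9 drew the figures.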

Additional observations from a re-analysis of the deposited data

Results flagged for a closer look

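In 27 groups of 4 mice (9 enzymes in 3 groups), 2 held a mouse whose gap to the others exceeded Dixon's 95% critical value, and chance flags about 1 in 20 groups. Hal had a signal of 1448 in NC replicate 2, above the other 3 NC mice, with a gap of 0.965 of the group's range. Ftcd had a signal of 2203 in NC replicate 1, below the other 3 NC mice, with a gap of 0.921 of the range. Both mice remained far above every mouse on the MCD+HF diet for these genes.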

How the results depend on the processing

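On the MCD+HF diet against NC, 8 members were called lower in every alternative except the centring on hepatocyte markers (6 called, 5 of them lower) and the mean over all probe sets of a gene (7 called); against NC with metformin, 8 were called except with that centring, with 5. With metformin against the diet alone, where 1 member was called, 0 were called with no filter, centring on hepatocyte markers, the replicate block, the model of 2 groups, the methods' t-test (adjusted, or with a 1.5-fold limit) or the mean over probe sets, and 0 to 1 without 1 array. The adjusted p of Amdhd1 was 0.0641, 0.186, 0.0519, 0.0696, 0.184 and 0.193 in those with an adjusted p. Its log2 change was 0.29 with the centring and 0.29 with the mean over probe sets.

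Signs turned with metformin for changes that were small as deposited. They also turned for larger changes on the diet, where Hgd, Gstz1 and Tat stood at -0.87, -0.89 and -0.36 as deposited. In the comparison of metformin-treated mice with NC, Hgd and Tat stood at -0.62 and -0.45 as deposited and turned too. With metformin, leaving out 1 array gave -0.340 to 0.0901 for Tat, above 0 without MCD+HF+Met replicate 1 or MCD+HF replicates 3 or 4. It gave -0.0675 to 0.0378 for Gstz1, above 0 without MCD+HF+Met replicates 2 or 3 or MCD+HF replicates 3 or 4, and -0.267 to 0.0145 for Hal, above 0 without MCD+HF replicate 4. With the centring, Hpd was at -0.0638, Fah at -0.0013 and Uroc1 at -0.0636. On other probe sets Hgd was at -0.66 and Uroc1 at -0.27, and with the mean over probe sets they were at -0.20 and -0.0673. On the diet, Hgd was at 0.13 and Gstz1 at 0.11 with the centring, Hgd at 0.19 on its other probe set, and Tat at 0.11 with quantile normalization and 0.65 with the centring. Against NC with metformin, centring put Hgd at 0.18 and Tat at 0.36. The cause was not tested.

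The replicate numbers name mice of different groups and were not used to pair them in the model of 3 groups. Deviations of same-numbered mice correlated at -0.13 to 0.25, and 3 of 12 arrays correlated best with their own number in both other groups. With the replicate block, 0, 8 and 8 members were called with metformin, with the diet and with metformin against NC, and 261 probe sets were higher and 464 lower with metformin, against 282 and 504 without it. The methods' t-test after adjustment called 3 higher and 5 lower. Signals near the offset of 10 limit what could be seen for dim genes such as Hdc.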
